A study of Mus musculus with 3 samples.

Results

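Shared high intergenic bins are stretches of 10 kb on the mouse autosomes that lie outside every protein-coding gene and carried a 5-hydroxymethylcytosine (5hmC) level of at least 2.5% in each of 3 cerebellum libraries. Of 127533 autosomal intergenic bins with a value in each library, 1675 met this rule, or 1.31%; the deposited table lists 264399 bins in all. The same threshold was passed by 9616 genic bins, 8.6% of the autosomal bins over a protein-coding gene, so that 14.8% of all bins past it on the autosomes were intergenic. The members were thus selected on their levels in all 3 libraries, and those levels are given below as a description, with no test.

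The 3 libraries were prepared from genomic DNA of mouse cerebellum, with 1 library per group. DDD-seq, a deaminase-based 5hmC assay, was applied to control cerebellum and to cerebellum labelled chronic sleep deprivation. ACE-seq (APOBEC-coupled epigenetic sequencing) was applied to cerebellum whose treatment the labels also give as normal/control. Strain, age, sex and the number of animals behind each library are not given in the sources used here, and the ACE-seq library is described by a protocol identical to that of both others, in which glycosylation is followed by deamination with the enzyme SsdAcat. A level is the deposited fraction times 100, and its depth is unknown. Levels given as 3 values always stand in the order DDD-seq control, sleep-deprived, ACE-seq. Because no group has replicates, every difference below is one between single libraries. A level includes any cytosine that escaped deamination, since DNA without 5hmC was not analysed here. Gene expression was not measured, so the tissue could not be checked against marker transcripts. The exact 95% binomial intervals given for shares of bins cover counting error only, and adjacent bins are not independent.

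5hmC is made from 5-methylcytosine by the TET dioxygenases and is a stable, abundant base in neurons of the adult brain. It is known for its enrichment over the bodies of transcribed neuronal genes and at distal regulatory elements. Bins outside coding genes can hold such elements, noncoding transcripts or the genes of microRNAs, short RNAs that repress messenger RNAs matched by their seed.

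Several members held microRNA genes. Their mature sequences are shown first because the shared seeds group the loci, which were singled out after their values were seen. In all, 16 microRNA genes lay in 11 members, and 15 of the 16 had a mature sequence in RefSeq (GRCm38.p6). The 5p strands of 11 of them carried 6 different seeds, given in capitals (bases 2 to 8), with the remaining bases in lower case.
let-7a-5p: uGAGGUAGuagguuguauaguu
let-7c-5p: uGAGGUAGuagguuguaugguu
let-7d-5p: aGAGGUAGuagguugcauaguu
let-7f-5p: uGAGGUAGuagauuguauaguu
miR-15a-5p: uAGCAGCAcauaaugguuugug
miR-16-5p: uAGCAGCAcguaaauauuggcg
miR-181a-5p: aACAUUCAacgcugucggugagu
miR-181b-5p: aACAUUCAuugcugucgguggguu
miR-30a-5p: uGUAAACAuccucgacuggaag
miR-99a-5p: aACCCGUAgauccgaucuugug
miR-125b-5p: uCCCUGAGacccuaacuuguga

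The let-7 family, known for promoting differentiation and opposing proliferation, was represented in 2 members. The bin with the genes Mirlet7d, Mirlet7f-1 and Mirlet7a-1 (chr13:48530001-48540000, 16.5 kb from Zfp169) had a level of 6.92%, 4.79% and 6.55%. Mirlet7c-1 shared its bin with Mir99a (chr16:77590001-77600000), at 3.73%, 4.36% and 3.40%. The bin of Mir125b-2 on the same chromosome (chr16:77640001-77650000) had 3.45%, 2.68% and 3.77%. These bins lay 473 kb and 523 kb from Usp25, a deubiquitinase gene and the nearest coding gene. The median over intergenic bins with a microRNA gene was 1.34%, 1.36% and 1.31%.

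Mir15a and Mir16-1, which share the seed AGCAGCA, lay in one bin (chr14:61630001-61640000, 17.2 kb from Kcnrg) with 4.98%, 5.38% and 6.11%. Mir181a-1 and Mir181b-1 (chr1:137960001-137970000) had 4.42%, 5.44% and 5.31% and belonged to the longest run of members described below. Mir30a (chr1:23270001-23280000) had 3.06%, 3.17% and 3.30%, and Mir30d (chr15:68340001-68350000) had 4.52%, 5.15% and 4.28%. The other members with a microRNA gene held Mir1952, Mir1187, Mir6370 and Mir344-2.

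Other copies of the same families did not pass the rule. Of 35 autosomal loci of the let-7, miR-15/16, miR-30, miR-99/100, miR-125 and miR-181 families, 12 lay in members, 8 in intergenic bins below the threshold and 15 in genic bins. Mirlet7c-2 and Mirlet7b, in one intergenic bin, had 1.13%, 1.16% and 1.61%. Mir100 and Mirlet7a-2 had 1.30%, 1.43% and 1.55%, and their products share seeds with those of members. Over all microRNA genes, 11 of 204 intergenic bins were members, 5.39% (2.72 to 9.44) against the 1.31% of all intergenic bins.

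The members' levels were right-skewed. In the DDD-seq control the lowest member stood at the threshold of 2.5%, the median was 3.44% and the highest 15.5%. The sleep-deprived library had a median of 3.39% and a highest value of 15.7%, and the ACE-seq control 3.29% and 12.4%. All autosomal intergenic bins had medians of 1.30%, 1.30% and 1.26%, and shared high genic bins 3.78%, 3.73% and 3.72%. The lowest of the 3 values reached 3% in 703 members, 4% in 151, 5% in 36 and 6% in 13. Just inside the threshold lay a bin 0.182 kb from the phosphatase gene Ppm1a (chr12:72800001-72810000), with 2.67%, 2.53% and 2.5%. Just outside lay a bin 259.5 kb from the decorin gene Dcn (chr10:97210001-97220000), with 3.66%, 2.498% and 3.21%. The 5 members taken as nearest the threshold stood at 2.5% in their lowest library and the 5 bins just below it between 2.497% and 2.498%. Other members tied with them at 2.5%, and the 5 were taken in order of bin name.

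The 10 highest members are described next, with their adjacent bins. The highest member lay in the interval between Tlr4, the lipopolysaccharide receptor gene, and Brinp1, a neuronal gene of the BRINP family (chr4:67470001-67480000, 623 kb from Tlr4 and 1281 kb from Brinp1). It had 15.5%, 15.7% and 12.4%, which was 4.22 to 5.58 times the mean of the adjacent bins. It overlapped no annotated long noncoding RNA (lncRNA) gene. The second, 499.5 kb from Etv1, an ETS transcription factor gene of granule cells (chr12:39370001-39380000), had 9.19%, 8.56% and 8.19% against 2.61%, 1.94% and 1.53% in the adjacent bins. A member 82.9 kb from Mef2c, a transcription factor gene of neuronal development (chr13:83750001-83760000), had 7.84%, 7.18% and 7.36%. One 489 kb from Kctd8, an auxiliary GABA-B receptor subunit gene (chr5:68610001-68620000), had 7.73%, 6.17% and 6.35%. Of the 10, 4 lay inside the long runs described below and had high neighbours, such as one 133 kb from Ptprc (chr1:137920001-137930000) with 6.67%, 7.42% and 7.15% against 6.54%, 6.62% and 6.63% in its adjacent bins. The bin 9.99 kb from Slitrk1 (chr14:108890001-108900000) had 7.01%, 9.66% and 6.87% against 7.87%, 5.27% and 6.06%. Since the bins were chosen for their high level, their excess over their neighbours is a description only.

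**Figure D1:**
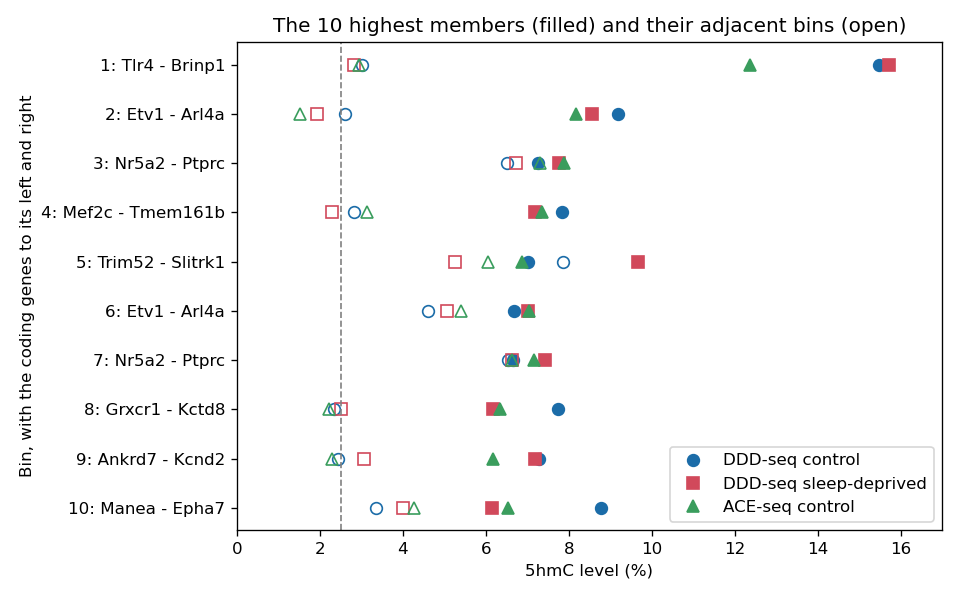
5hmC level (percent, x axis) of the 10 members with the highest minimum over the 3 libraries, with the coding genes to the left and right of each on the y axis; filled symbols are the member, open symbols the mean of its adjacent bins, and the dashed line is the threshold of 2.5%. The bin between Tlr4 and Brinp1 stands at 12.4 to 15.7%, while the bins of the run near Ptprc lie closer to their adjacent bins.

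Most members had no other member beside them. The 1675 members formed 1432 runs without a gap, of which 1256 were single bins, 135 had 2 bins, 27 had 3, 9 had 4 and 5 were longer. Members in runs of at least 2 bins made up 25.01% (22.96 to 27.2), against 67.3% of shared high genic bins, whose longest run was 52 bins. No test was made of this difference, since both sets were chosen by level. An intergenic run also ends where a genic bin begins, whatever the level of that bin. Genic bins passed the threshold more often, 8.6% against 1.31%, so the shares in runs are not directly comparable.

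The longest run, of 8 bins (chr1:137900001-137980000), lay 82.9 kb from Ptprc, which encodes the leukocyte phosphatase CD45, and 940 kb from Nr5a2, a nuclear receptor gene. Its mean was 5.39% ± 1.31 (SD over 8 bins), 6.09% ± 1.07 and 5.97% ± 1.33. In the 50 kb on both sides the levels were 1.98%, 1.86% and 2.09%. The lncRNA gene Gm4258 overlapped 7 of the 8 bins, and Mir181a-1 and Mir181b-1 lay in the seventh. The lowest value in the run was 3.76%, in the last bin in the DDD-seq control, and the highest 7.89%, in the second bin by ACE-seq.

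The run of 7 bins (chr14:108780001-108850000) lay 60.0 kb from Slitrk1, which encodes a transmembrane protein of neurite outgrowth and synapse formation. It had 3.94%, 5.00% and 4.18%, and its flanks had 4.42%, 4.08% and 3.77%. The run was below its flanks in the DDD-seq control, but flanks, 50 kb on each side, were taken with any members in them. Here they held the whole of the run of 4 bins given below. Runs end where a bin misses the threshold, so that an excess over the flanks is partly set by the rule. A further run of 4 bins (chr14:108860001-108900000) filled most of the distance to the gene with 5.78%, 5.37% and 4.52%. The bin that follows this run and holds the edge of Slitrk1 had 11.1%, 6.12% and 8.90%. The next bin, which holds nearly all of the gene, had 1.11%, 1.35% and 1.16%, so that the level fell within one bin of the edge of the gene.

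Both runs of 6 bins lay between Etv1 and Arl4a, a small GTPase gene. The farther one (chr12:39300001-39360000, 429.5 kb from Etv1) had 4.72%, 5.02% and 4.56%, with flanks at 2.67%, 2.94% and 2.59%. These flanks include the member at 9.19%, 8.56% and 8.19% described above. The nearer one (chr12:39030001-39090000, 159.5 kb) had 4.20%, 4.26% and 4.25%, with flanks at 2.446%, 2.503% and 2.173%. It overlapped the lncRNA gene Gm34809 in 2 bins. The run of 5 bins (chr6:20730001-20780000) lay 435 kb from Kcnd2, the gene of an A-type potassium channel, and had 4.61%, 4.98% and 4.65% against flanks of 1.59%, 1.65% and 1.88%.

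**Figure D2:**
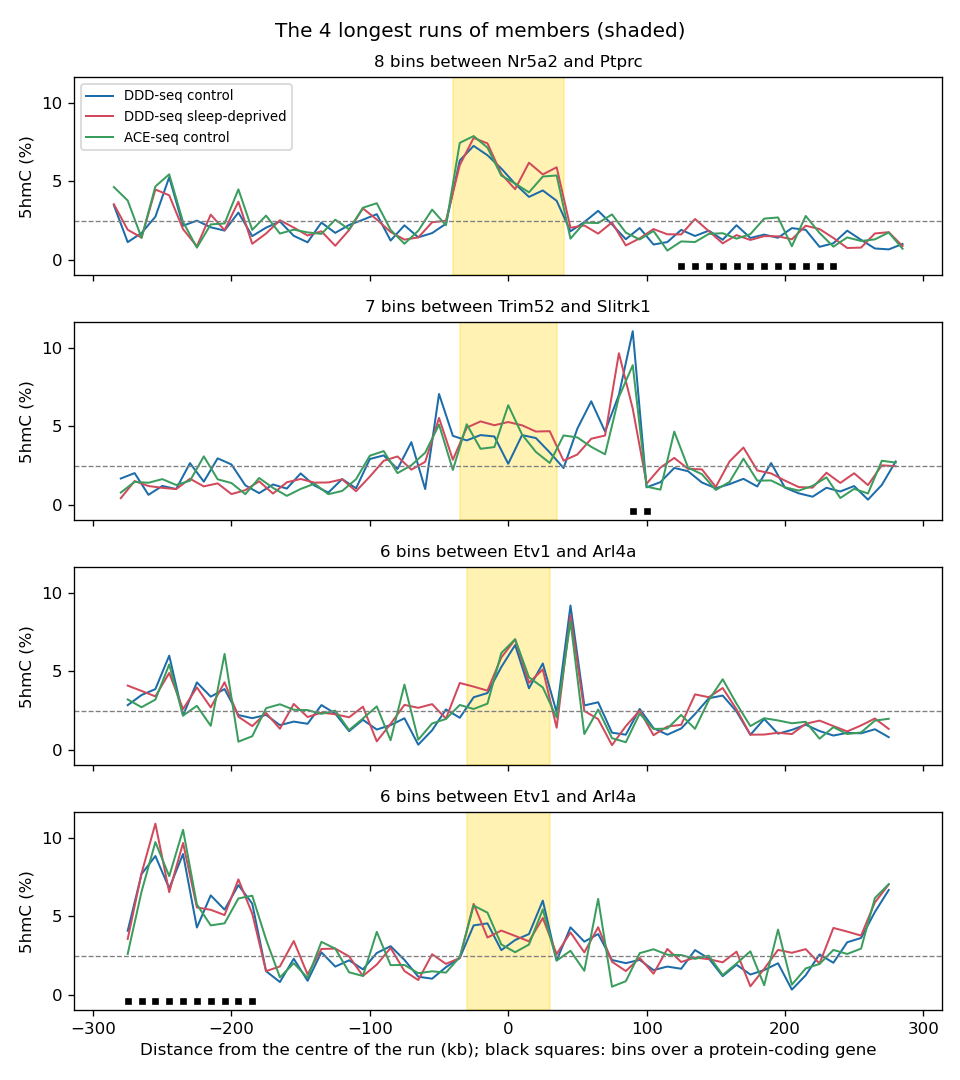
5hmC level (percent, y axis) in 10 kb bins around the 4 longest runs of members (shaded) against the distance from the centre of the run in kb (x axis), 1 line per library; black squares mark bins over a protein-coding gene and the dashed line is the threshold. The 3 lines rise together over the run near Ptprc to between 3.76 and 7.89%, while the run near Slitrk1 continues in a raised stretch up to the gene.

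Of the 9 runs of 4 bins, the 7 with the highest mean over the libraries completed the 12 longest. They had means between 3.18% and 5.78% in single libraries. One (chr8:87480001-87520000) began 7.41 kb from Cbln1, the gene of a synapse organiser secreted by granule cells, and lay within the lncRNA gene Gm2694. It had 4.01%, 3.91% and 4.44%, with flanks at 1.71%, 1.51% and 1.60%. Another (chr6:31170001-31210000) lay inside Lncpint, a p53-regulated lncRNA gene, with 3.75%, 3.57% and 3.18%. The run 105 kb from Kcnip4, which encodes a Kv4 channel-interacting protein (chr5:49630001-49670000), had 3.81%, 3.79% and 3.43%. The others lay near Rwdd3 (3.72%, 3.48% and 3.54%), Triqk (3.52%, 3.62% and 3.59%) and the predicted gene Gm46240 (4.75%, 4.68% and 3.97%). Of the 12 longest runs, 5 overlapped a lncRNA gene. The share among other intergenic stretches of this length was not computed, so nothing is read from that count.

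The raised level extended beyond the member itself. Intergenic bins 10 kb from a member, members among them included, had a mean of 2.10% ± 1.14 (SD over 3207 bins), 2.13% ± 1.11 and 2.04% ± 1.12. At 50 kb the means were 1.84%, 1.86% and 1.80%, and at 200 kb 1.69%, 1.72% and 1.63%, still above the means of all intergenic bins (1.39%, 1.40% and 1.34%). The neighbours 10 kb away were members in 15.2% of cases and those 200 kb away in 5.49%, against 1.31% of all intergenic bins. Neighbours that were not members had means of 1.77%, 1.81% and 1.71% at 10 kb. A bin between 2 members was counted once for each.

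**Figure D3:**
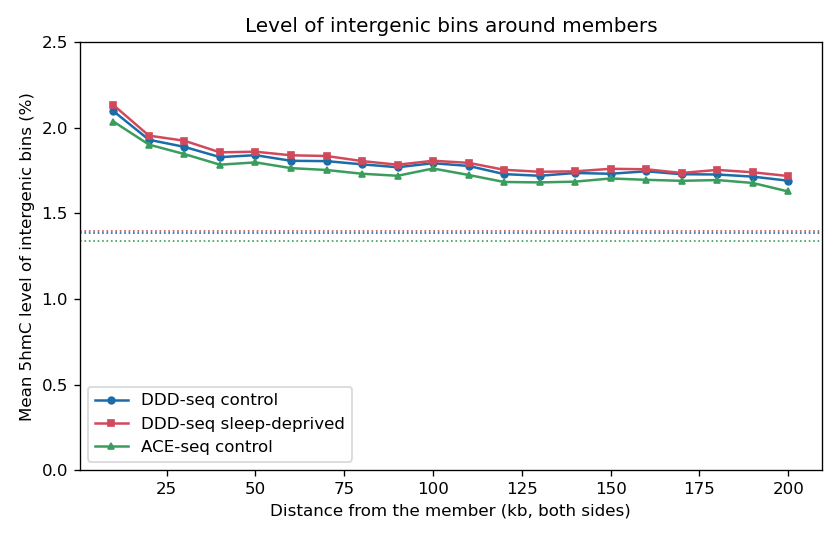
Mean 5hmC level (percent, y axis) of intergenic bins at 10 to 200 kb on both sides of a member (x axis), 1 line per library, with the mean of all autosomal intergenic bins dotted. The lines fall from 2.04 to 2.13% at 10 kb to 1.63 to 1.72% at 200 kb and stay above the dotted lines over the whole range.

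Members lay farther from coding genes than intergenic bins in general. Their median distance to the nearest protein-coding gene was 181.3 kb (164.6 to 194.6, exact 95% binomial interval of the median), against 102 kb (100.4 to 103.1) for all autosomal intergenic bins. The gap between coding genes in which a member lay had a median length of 932 kb, against 582 kb. Members made up 0.780% (0.653 to 0.924) of intergenic bins within 10 kb of a gene and 0.811% (0.712 to 0.921) of those at 10 to 50 kb. The share was 1.198% at 50 to 100 kb, 1.65% at 100 to 200 kb, 1.77% at 200 to 500 kb and 1.84% (1.62 to 2.08) at 500 to 1000 kb. Beyond 1000 kb it was 1.43% (1.16 to 1.75). These distances were not used by the rule beyond the requirement of no overlap. The intervals count each bin as independent although members cluster, so they are too narrow to compare the classes, and no test was made.

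**Figure D4:**
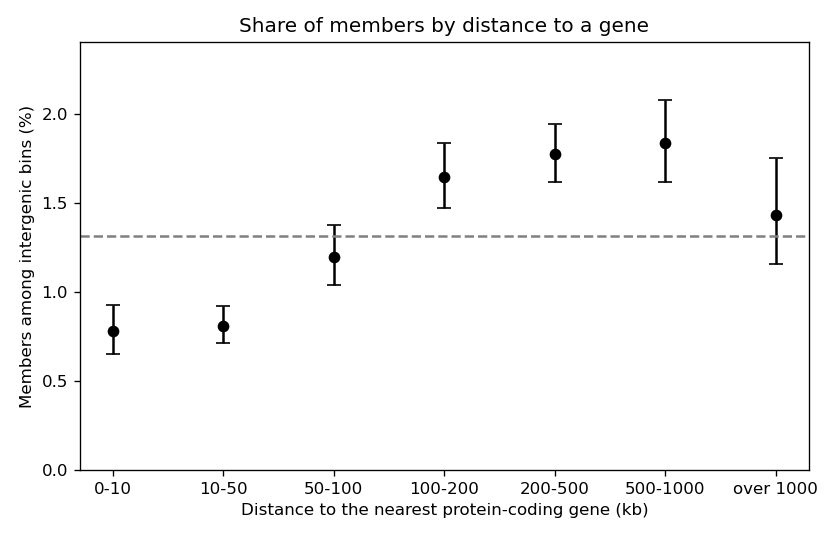
Share of intergenic bins that are members (percent, y axis) by distance to the nearest protein-coding gene in kb (x axis), with exact 95% binomial intervals as bars and the share over all intergenic bins, 1.31%, as a dashed line. The share is lowest within 50 kb of a gene (0.780% and 0.811%) and highest at 500 to 1000 kb (1.84%).

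The side of the gene was known for 1259 members through the strand of its RefSeq promoter. Of these, 620 lay upstream of the start of the nearest gene and 639 beyond its end, so that 49.2% (46.4 to 52.0) were upstream against 53.5% of all intergenic bins. Within 50 kb, 128 of 283 members were upstream, 45.2% (39.3 to 51.2) against 54.7%.

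Counted once per member, the nearest coding genes had higher levels than those of intergenic bins in general, though mostly below 2.5%. The gene-body level, averaged over every bin that a gene touches, used no member bin. Its median over members, each taking its nearest gene, was 1.97% (1.91 to 2.03), 1.95% and 1.95%. Over all intergenic bins, taken likewise, it was 1.52%, 1.51% and 1.49%. The 1675 members shared 746 nearest genes, so genes repeat, and the interval takes these repeats as independent. The nearest gene exceeded 2.5% in each library for 33.0% of members and for 12.1% of all intergenic bins. Within 50 kb of the gene these shares were 34.9% (30.01 to 39.96) and 7.34%.

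Members had 746 different nearest genes, of which 444 were nearest to 1 member and 78 to 5 or more. The 20 genes nearest to the most members took 267 of them, 15.9%, and were chosen for that count. They were nearest to 1.99% of all intergenic bins. The share of members among the intergenic bins nearest to each gene ran from 3.16% to 30.5%. Of these genes, 10 had a body level of at least 2.5% in each library and 6 stayed below 2% in each.

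Among those with a high body, Etv1 was nearest to 16 members among 64 intergenic bins, with a mean member level of 4.60%, 4.72% and 4.58%. Its own body had 6.52%, 6.70% and 6.42%. Kcnd2 was nearest to 17 members among 118 bins, out to 1145 kb, with 4.22%, 4.27% and 3.99%, and its body had 5.36%, 5.26% and 5.14%. Slitrk1 had 17 members among 229 bins, out to 1220.0 kb. Its body average of 6.09%, 3.74% and 5.03% came from the bin at its edge described above. It did not come from the bin that holds nearly all of the gene. Btbd3, which guides the orientation of dendrites, had 17 members among 116 bins and a body at 3.15%, 3.21% and 3.38%. The cadherin genes Cdh18 and Cdh8 each had 10 members, among 141 and 316 bins. Their bodies had 3.29% and 4.02% in the DDD-seq control. Zfp608, a zinc finger gene, had 13 members among 115 bins. Arpp21, which encodes a cyclic AMP-regulated phosphoprotein, had 9 among 88, and Brinp3 9 among 231. Plscr5, of the scramblase family, had 10 members among 40 bins.

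Another 6 genes of the 20 had a body below 2% in each library. Ptprc had the highest share of the 20, with 18 members among 59 intergenic bins (30.5%), all on the side of the run with Gm4258, while its body had 1.58%, 1.65% and 1.68%. The mean over its members was 4.24%, 4.63% and 4.90%. Stpg2 had 17 members among 80 bins, with a body at 1.63%, 1.65% and 1.69%, and Ankrd7 had 16 of 117, in the long interval that ends at Kcnd2. Sptlc3, a gene of sphingolipid synthesis, had 11 members among 62 bins and a body at 1.40%, 1.26% and 1.34%. Cited2, a transcriptional co-regulator gene, had 18 members among 150 bins, between 123 and 1443 kb away. Their mean level was 3.63%, 3.84% and 3.63%. Marcks, which encodes a protein kinase C substrate, had 12 members among 90 bins. Of the remaining genes of the 20, Usp25 had 14 members among 91 bins and Tlr4 11 among 115. Pdha2, a testis form of a pyruvate dehydrogenase subunit, had 13 among 87, and the RNA-binding protein gene Celf4 9 among 225.

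Gene lists were compared by the share of members among the intergenic bins nearest to their genes. The lists and members were chosen with earlier results of these data known, and no test of a list was made. A member is said to lie beside a gene where that gene is its nearest, at whatever distance. Of 370 bins nearest to a granule cell gene, 51 were members, 13.8% (10.4 to 17.7) against 1.31% of all intergenic bins. They were nearest to 6 of the 17 listed genes: Kcnd2 and Etv1 with 33 together, the zinc finger genes Zic4 with 9 and Zic1 with 4, Cbln1 with 4 and Neurod1 with 1. Without Kcnd2 and Etv1 the share was 18 of 188 bins, 9.57%. The Zic4 members had 3.99%, 3.64% and 3.89%, and the Zic1 members 4.80%, 3.97% and 4.43%.

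Lists of other cerebellar cell types were small, and their counts set only wide limits. Of 219 bins nearest to Purkinje cell genes, 2 were members, 0.913% (0.111 to 3.26), an interval that includes 1.31%, and one of these lay beside Calb1, which encodes calbindin, 291 kb away. The GABAergic interneuron list had 0 of 289 bins, with an exact upper limit of 1.27%. Oligodendrocyte genes had 0 of 73, Bergmann glia and astrocyte genes 0 of 54, unipolar brush cell genes 0 of 49 and microglia genes 0 of 4, with upper limits of 4.93%, 6.60%, 7.25% and 60.2%. The microglia, unipolar brush cell, Bergmann glia and oligodendrocyte limits all lie above 1.31%, so that no difference from all intergenic bins was detectable there. The endothelial list had 5 of 45 bins, 11.1% (3.71 to 24.1), all beside Emcn, an endothelial sialomucin gene, at a mean of 4.11%, 3.01% and 3.99%.

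Among lists by function, that of neurodevelopmental transcription factors had 74 members of 2791 bins, 2.65% (2.09 to 3.32), beside 22 of 64 genes. Etv1 with 16, Zic4 with 9, Zic1 with 4 and Neurod1 with 1 stood on the granule cell list too. Both lists count these members, so the share is not separate from that of the granule cell list. Nfib, a nuclear factor I gene, had 8 members among 56 bins, Mef2c 7 among 112 and Meis1, a homeobox gene, 5 among 91. Potassium channel genes had 32 of 835, 3.83%, of which 17 were those of Kcnd2, and 4 were the run near Kcnip4. Kcnd2, nearest to 118 of these bins, stood on the granule cell list too. GABA receptor genes had 14 of 421, 3.33%, with 5 beside Kctd8 and 2 beside Gabrb2. Axon guidance genes had 40 of 1842, 2.17%. The ephrin receptor genes Epha7 with 8 of 273 bins and Epha4 with 7 of 119 had the highest counts. Cell adhesion and synapse organiser genes had 140 of 8037, 1.74% (1.47 to 2.05), beside 36 of 63 genes, but they also held 6.30% of all intergenic bins.

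The lists for glutamate receptors (7 of 877, 0.798%), the circadian clock (1 of 138), immediate early genes (1 of 77) and DNA methylation and demethylation (1 of 80) had shares whose intervals included 1.31%. The single member of the last list lay 250.9 kb from Mbd2, which encodes a methyl-CpG-binding protein, with 6.47%, 5.60% and 6.44%. The clock member lay 54.9 kb from the repressor gene Cry1, with 2.998%, 4.56% and 2.94%. Olfactory and vomeronasal receptor genes had 5 of 3163 bins, 0.158% (0.0513 to 0.369).

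**Figure D5:**
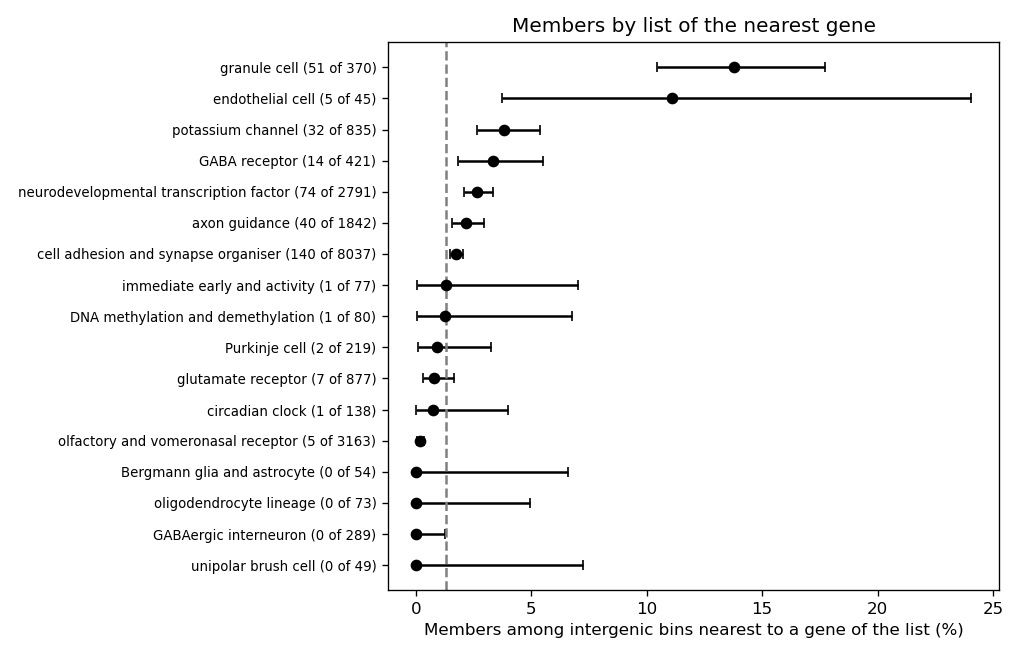
Share of members (percent, x axis) among the intergenic bins nearest to a gene of each list (y axis, with members and bins in parentheses; lists of at least 40 bins), with exact 95% binomial intervals as bars and the share over all intergenic bins, 1.31%, dashed. The granule cell list stands at 13.8% and the olfactory and vomeronasal receptor list at 0.158%.

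LncRNA genes overlapped 314 members, 18.7% (16.9 to 20.7), against 16.9% of all intergenic bins. Any annotated gene overlapped 378 members, and 1297 members, 77.4%, overlapped none, against 76.1% of all intergenic bins. More than 200 kb from a coding gene, 2.43% (2.03 to 2.88) of bins over a lncRNA gene were members, against 1.65% (1.53 to 1.78) of those without one. At 50 to 200 kb the shares were 1.39% and 1.44%. Pseudogenes overlapped 46 members, 0.623% (0.456 to 0.830) of the intergenic bins that hold one.

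Members lay in 227 of the 12408 autosomal lncRNA genes, a total that includes any without an intergenic bin. Of the 227, 178 had 1 member and 26 at least 3. Gm29478, 121 kb from Zic4, had 7 members among its 21 intergenic bins, with ranges of 2.97 to 6.13%, 2.504 to 5.80% and 3.23 to 5.93%. Gm4258 had 7 of 8, and its whole length averaged 5.21%, 5.67% and 5.57%. Lncpint had 6 of 13 and averaged 2.87%, 2.67% and 2.60%. Mir99ahg, named as the host gene of the miR-99a cluster although its RefSeq model ends before Mir99a, had 4 of 24 and averaged 2.49%, 2.39% and 2.64%. Of the 26 genes, 12 averaged at least 2.5% in each library over all their intergenic bins.

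Snhg14, the long transcript of the imprinted Prader-Willi and Angelman region that runs antisense to Ube3a, had 4 members among 62 intergenic bins and averaged 1.60%, 1.55% and 1.50%. One of them, 2.495 kb from Snrpn (chr7:59970001-59980000), had 2.73%, 3.25% and 8.81%. A330076H08Rik, 368 kb from Ndn, had 3 members of 5. Gm2694 beside Cbln1 had 4 of 5 and averaged 3.70%, 3.71% and 3.98%. The other genes with at least 5 members, with 5 each, were 6530403H02Rik (44 intergenic bins), Gm14061 (19), Gm20125 (15) and Gm34196 (34). Those with 4 were 1700023F02Rik (9 bins), Gm29687 (13), Gm31409 (6), Gm31615 (16) and Gm34809 (9), beside the genes with 4 already named. Those with 3 were 4930467D21Rik (18), A330008L17Rik (32), Gm14066 (6), Gm17750 (5), Gm32875 (5), Gm33228 (40), Gm33906 (23), Gm39431 (12), Gm40767 (10) and Gm8633 (7). The counts of members are not adjusted for gene length. The bins are not split by strand, so overlapping sense and antisense genes cannot be told apart.

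Starts of lncRNA genes inside members were compared with those in all intergenic bins over the 300 bases from 250 before to 50 after the start. CpG dinucleotides are the main site of 5hmC. In members, 80 such windows had a median of 3 CpG and a median GC content of 43.3%, and 12.5% of them held no CpG. The 6310 windows in all intergenic bins had a median of 3 CpG and 46.7% GC, and 8.42% held none. A pair of windows from RefSeq (GRCm38.p6) shows a start with several CpG and one with few, CpG being in capitals. That of 6530403H02Rik (chr3:120886683-120886982, minus strand) holds 7 and lies in a bin of 3.77%, 3.73% and 4.16%. That of Gm40767 (chr10:114917052-114917351, minus strand) holds 2 in a bin of 4.77%, 4.90% and 5.65%.
6530403H02Rik: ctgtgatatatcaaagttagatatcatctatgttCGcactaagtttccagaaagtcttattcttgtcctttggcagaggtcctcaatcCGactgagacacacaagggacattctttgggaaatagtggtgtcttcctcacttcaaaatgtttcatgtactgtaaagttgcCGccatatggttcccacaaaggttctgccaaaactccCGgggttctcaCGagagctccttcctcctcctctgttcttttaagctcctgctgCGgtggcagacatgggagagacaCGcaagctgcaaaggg
Gm40767: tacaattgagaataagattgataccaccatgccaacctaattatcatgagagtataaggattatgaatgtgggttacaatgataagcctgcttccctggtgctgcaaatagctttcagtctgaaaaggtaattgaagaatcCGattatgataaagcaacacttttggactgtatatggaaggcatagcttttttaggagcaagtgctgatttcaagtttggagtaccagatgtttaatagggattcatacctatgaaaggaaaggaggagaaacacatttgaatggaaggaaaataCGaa

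The chromosomes differed in their share of members. Chromosome 10 had the highest, 156 of 6714 intergenic bins or 2.32% (1.98 to 2.71), followed by chromosome 16 with 1.97% and chromosome 18 with 1.88%. Chromosome 19 had 13 of 2587, 0.503% (0.268 to 0.858), and chromosome 7 had 0.634%. The median level of intergenic bins in the DDD-seq control was 1.36% on chromosome 10, 1.17% on chromosome 7 and 1.27% on chromosome 19.

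Each library was also left out of the choice in turn, so that its level was not used in it. All libraries share the tissue and the bins, and both DDD-seq libraries the assay. Anything common to them, of 5hmC or of the method, would carry over to the left-out library. Bins chosen in the sleep-deprived and ACE-seq libraries numbered 2412, and 69.4% (67.6 to 71.3) of them passed the threshold in the DDD-seq control, against 5.04% of all intergenic bins. Of 2402 bins chosen in both controls, 69.7% passed in the sleep-deprived library, against 4.64%. Without the ACE-seq library the rule gave 2680 bins in place of 1675 and 292 runs of at least 2 bins in place of 176, and 62.5% of these bins passed by ACE-seq, against 4.56%. The left-out level had a median of 2.99%, 2.94% and 2.80% in the same order. It was above the intergenic median in 96.7%, 96.8% and 95.3% of the bins.

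The effect of sleep deprivation was addressed by the pair of DDD-seq libraries. The median ratio of sleep-deprived to control was 0.995, with 823 members above 1 and 852 below, and the central 95% of ratios lay between 0.632 and 1.62. Past 1.5-fold, 65 members were higher (17.7% of intergenic bins above 0 in both libraries were) and 64 lower (15.6% of those bins were). The rule required a high level in both libraries, and nothing is read from these counts. In 5701 bins chosen in the ACE-seq library alone, which is not part of this contrast, the median ratio was 1.003 and the median difference 0.00548 percentage points ± 0.919 (SD over bins). Of those, 858 were higher and 766 lower past 1.5-fold.

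Individual members differed more, and the most extreme are named after their values were seen. A member 1358 kb from the adhesion gene Lrrc4c (chr2:98990001-99000000) had 8.87%, 3.05% and 2.79%, and one 166.6 kb from Btbd3 (chr2:138080001-138090000) 7.33%, 2.87% and 4.95%. One 42.2 kb from Cdh7 (chr1:109930001-109940000) had 2.52%, 6.70% and 3.33%, and one 280.4 kb from Ankrd7 (chr6:19160001-19170000) 2.73%, 6.81% and 4.77%. At the first bin both other libraries were near the threshold, and the DDD-seq control was the highest. Without replicates, whether these bins differ beyond the error of 1 library was not tested.

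ACE-seq levels were slightly below those of the DDD-seq control. The median ratio over members was 0.976, with 753 higher and 921 lower by ACE-seq, and the median difference was -0.0753 percentage points ± 0.946 (SD over members). Over all intergenic bins above 0 in both, the median ratio was 0.966. Past 1.5-fold, 57 members were higher (17.1% of intergenic bins were) and 100 lower (20.8% of intergenic bins were). In 5802 bins chosen in the sleep-deprived library alone, the median ratio was 0.950, with 762 higher and 1048 lower past 1.5-fold. That library was made by DDD-seq, as was the control, so this choice is not neutral between the assays. The comparison of the assays and that of sleep deprivation share the DDD-seq control.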

How the data were processed

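The authors deposited 1 fraction per 10 kb bin and library, per the file headers, from 0 to 1. The submitters' processing notes name FastQC, Trimmomatic, Bismark and the human build hg19. The averaging, the cytosine context and any coverage filter were not given in the sources used here, so conversion failure and depth cannot be separated from level. The headers of both DDD-seq columns end in "all", so runs may have been pooled in them. The bins cover mouse chromosomes, and on all 21 the last bin ended 1.33 to 211.9 kb after the last gene of RefSeq GRCm38.p6, so the bins were taken as that build. The fractions were multiplied by 100. Overlap by 1 bp with a protein-coding gene made a bin genic. Distances run from bin edge to gene edge. The 198 autosomal bins lacking a value were left out.

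Named were the 12 longest runs (ties by mean level), the 10 members with the highest lowest level, the 5 bins on either side of the threshold, the 20 genes nearest to the most members (ties by symbol), and lncRNA genes with 3 or more members. Members and lists were chosen with earlier results of these data known. Overlap, distance and run functions were tested on simulated data. Alternatives covered the threshold, the libraries required, gene definitions, chromosome X, gaps in runs and the fold. Names outside that rule (microRNAs, list genes and the most different members) were chosen after their values were seen. Analyses used matplotlib 3.10.9, scipy 1.17.1, pandas 2.3.3 and numpy 2.4.6 under Python 3.11.15. Some genes of the lists are not reported here by name.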

Additional observations from a re-analysis of the deposited data

How the results depend on the processing

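No paired analysis was possible because each group has 1 library. A threshold of 2% gave 4393 members, 540 runs of at least 2 bins (176 at 2.5%) and a median nearest-gene level of 1.87%. At 3% there were 703 members, 57 runs and a median distance of 197 kb. With 1 library left out of the choice, members numbered 2402 to 2680, runs 237 to 292, the median distance 192.0 to 193.0 kb, the lncRNA share 17.8 to 17.9% and the nearest-gene level 1.90 to 1.93%. Genes widened by 10 kb gave a median distance of 206 kb. Leaving out bins over any annotated gene left 117 runs and a lncRNA share of 0 by construction. Leaving out predicted genes, adding chromosome X (85 bins more), dividing by the library mean or allowing 1 bin inside a run moved no value beyond its interval or 1.5 times. Past a ratio 25% above 1 or its inverse lay 529 members for sleep-deprived to control and 542 for ACE-seq to control. Past 2-fold there were 9 and 14, against 129 and 157 past 1.5-fold. The shares of all intergenic bins past the 25% and 2-fold limits are not given here. The rule required a high level in each library, and nothing is read from these counts. Bins chosen in the library outside the contrast, an alternative added after seeing the data, gave 1624 and 1810 past 1.5-fold, from larger sets of bins. The causes of the other changes were not tested. The depth behind each bin is unknown, which limits every single-bin value.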
